A study of Mus musculus with 2 samples.

Results

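Expression of 10 genes that mark the path from midbrain floor plate to dopaminergic neuron was followed in mouse embryos. They were Foxa1, Foxa2, Lmx1a, Lmx1b and Corin of the floor plate, Nr4a2 and Pitx3 of young dopaminergic neurons, and Th, Ddc and Slc18a2, which make and store dopamine. They were chosen by symbol from the gene and transcript tables, through the gene identifier without its version, and all 10 were found among 43346 measured genes. The tables held 2 RNA-seq libraries of 1 group, which are midbrain tissue from strain B6NCrl at embryonic day 12.5, both sexes mixed, with no treatment named. Replicate 2 was a pool of 88 embryos and replicate 1 a pool of 120, with an input per library of 10 ng RNA above 200 nt. No second condition was labelled, so the comparisons are between genes within the tissue and between the 2 pools, and any p-value compares these libraries and not conditions.

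The floor plate is the strip of cells at the ventral midline of the neural tube. In the midbrain it is neurogenic, and its progenitors give rise to the dopaminergic neurons of the substantia nigra and ventral tegmental area. Foxa1 and Foxa2 are forkhead factors that also act in endoderm, and Lmx1a and Lmx1b are LIM homeodomain factors that also mark the roof plate and, for Lmx1b, the isthmus and some mesenchyme. Corin is a surface serine protease used to sort floor plate cells. Newly born neurons switch on the orphan nuclear receptor Nr4a2 and the homeodomain factor Pitx3. Dopaminergic neurons also express tyrosine hydroxylase (Th), aromatic L-amino acid decarboxylase (Ddc) and the vesicular monoamine transporter (Slc18a2).

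Replicate 2 held 36082643 estimated counts on genes and replicate 1 held 28212923, of which the 10 genes took 7903 and 4433. Levels are given as TPM, an abundance corrected for transcript length, so they can be compared between genes. Otx2, a factor of forebrain and midbrain, stood at 141.8 TPM in replicate 2 against 146.6 TPM in replicate 1, which cannot tell these regions apart. En1, listed with the ventral midbrain, stood at 8.49 and 5.9 TPM, and En2 of the same list at 1.73 and 1.2 TPM. Lhx2, the most abundant gene listed with the forebrain, stood at 90.9 and 106.9 TPM, so the tissue label was not checked by these genes. In bulk tissue, fewer cells of a type and less RNA per cell cannot be told apart.

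All 10 genes were detected in both pools, and the neuronal genes other than Pitx3 had higher mean levels than each floor plate gene except Lmx1a, which stood above Slc18a2. Nr4a2 was the highest, at 29.1 TPM in replicate 2 against 25.3 TPM in replicate 1, ranking 5471 and 5927 among 21474 protein-coding genes by TPM. Lmx1b was the lowest, at 2.33 TPM in replicate 2 against 1.81 TPM in replicate 1, with ranks of 12040 and 12359. In order of mean TPM the genes ran Nr4a2, Ddc, Th, Lmx1a, Slc18a2, Foxa2, Corin, Pitx3, Foxa1 and Lmx1b. Nr4a2 stood above Ddc, and Lmx1b below Foxa1, in every library, while each of the other neighbours in that order had library values that overlapped. The 5 floor plate genes summed to 40.8 TPM in replicate 2 against 25.6 TPM in replicate 1, and the 5 neuronal genes to 92.7 TPM and 68.3 TPM.

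**Figure D1:**
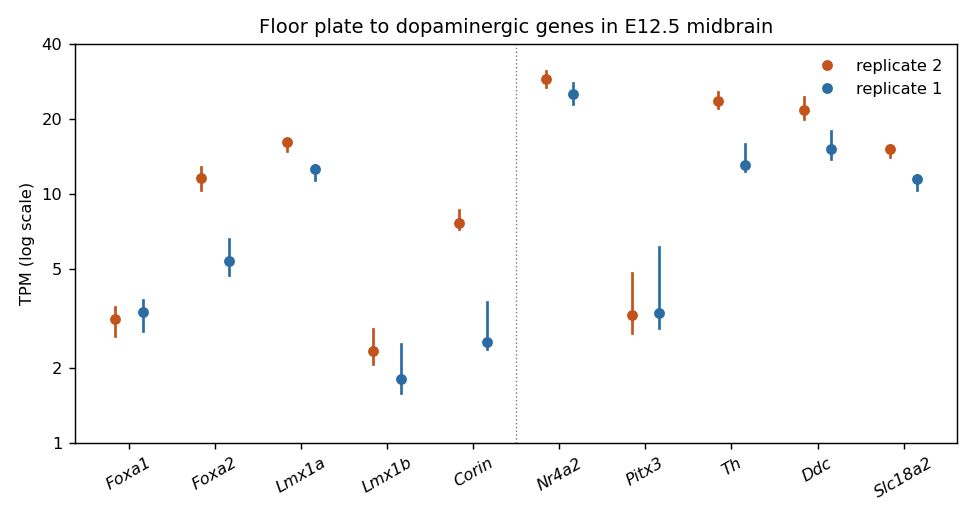
Level of each gene in TPM on a log axis, replicate 2 left of replicate 1. Points are deposited TPM, bars are the authors' deposited posterior intervals, and the dotted line divides floor plate genes from neuronal genes. Nr4a2 is highest in both libraries, and Foxa2, Corin and Th show the widest gaps between libraries.

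Between the pools, Foxa2, Corin and Th were higher in replicate 2, and no gene of the 10 was called lower. A gene was called at a ratio of at least 1.5-fold, an adjusted p under 0.05 in a two-sided exact binomial test and a mean of at least 1 TPM. By this rule 3 of 10 were called, all higher in replicate 2, against 3.55% of 15199 tested genes in either direction and 2.14% in the higher direction. By sign alone 8 of 10 were higher and 2 lower, against 49.7% higher among all tested genes, and the 2 lower ones, Foxa1 and Pitx3, turned sign with spike-in scaling. The median log2 ratio of the 10 genes, replicate 2 over replicate 1, was 0.37, and over all tested genes it was -0.00. Scaled to spike-in RNAs instead, the median of all tested genes was 0.27 and 7 of the 10 genes were called, with 1209 of all tested genes higher and 119 lower, against 325 and 214 by the first scaling. Without the fold threshold, the adjusted p of the exact binomial test also took 7 of the 10, against 26.4% of all tested genes. The same 3 genes were called with the overdispersion of these libraries in the test (edgeR exact negative binomial test), which called 1.32% of all tested genes. By that edgeR exact test the adjusted p was 0.00113 for Foxa2, 2.57e-09 for Corin and 0.0127 for Th. Their deposited TPM intervals also lay apart between the libraries, as did those of Lmx1a, Ddc and Slc18a2, against 16.1% of all tested genes. The share of tested genes that were both called and apart was 1.89%.

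**Figure D2:**
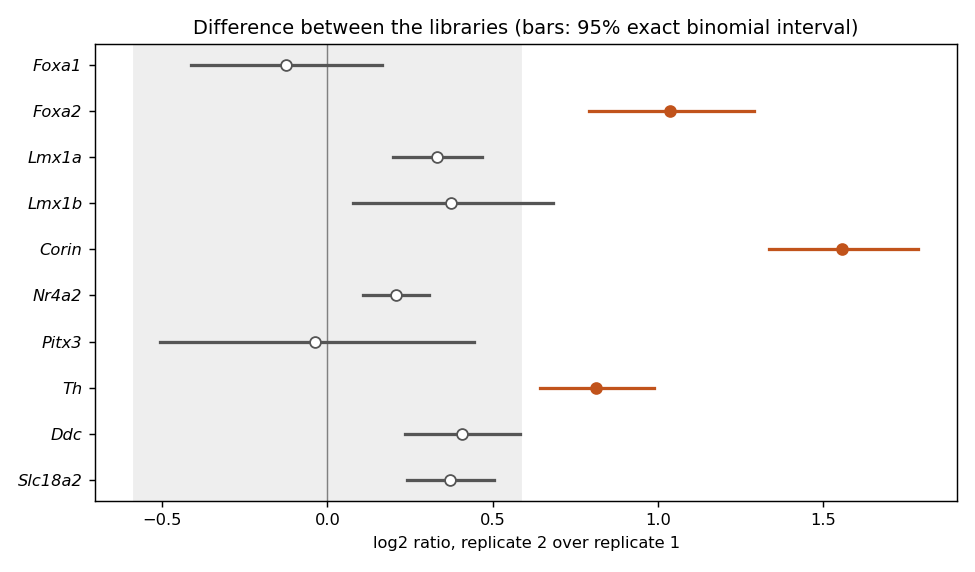
Log2 ratio of replicate 2 over replicate 1 for each gene, with its 95% exact binomial interval, which covers counting error only. Filled points are called genes, and the grey band marks ratios under 1.5-fold. Foxa2, Corin and Th lie beyond the band, and Foxa1 and Pitx3 have intervals that span 0.

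Of the forkhead pair, Foxa2 differed between the pools and Foxa1 was not called. Foxa2 (ENSMUSG00000037025, chromosome 2, 148042877 to 148046969 in mm10, minus strand) was at 11.5 TPM in replicate 2 against 5.36 TPM in replicate 1, from 486 and 183 counts. Its ratio was 2.05-fold, with a 95% interval of 1.73 to 2.45 (exact binomial test, adjusted p = 3.04e-16). Of 15199 tested genes, 131 had a ratio at least as high. Foxa1 (ENSMUSG00000035451, chromosome 12, 57540628 to 57546916, minus strand) was at 3.15 TPM in replicate 2 against 3.36 TPM in replicate 1, and its ratio of 0.917 had an interval of 0.750 to 1.12 (exact binomial test, adjusted p = 0.615). Within a library, Foxa2 was thus 3.66 times the level of Foxa1 in replicate 2 and 1.60 times in replicate 1. The upper bound for Foxa1 lay below the lower bound for Foxa2.

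Foxa2 has several annotated starts, and most of its abundance was given to one of them in both pools. Foxa2-202, a coding transcript with 2 exons, held 80.3% of Foxa2 in replicate 2 and 96.7% in replicate 1. Foxa2-201, a coding transcript with 3 exons that starts 1021 bases upstream, held 12.2% in replicate 2 and was listed at 0 in replicate 1. Its deposited TPM intervals reached from 0.337 to 3.80 TPM in replicate 2 and up to 1.76 TPM in replicate 1, so they overlap, and the authors' posterior shares were 17.6% and 11%. Foxa2-203, a transcript without coding sequence that starts 484 bases downstream, held 7.53% and 3.27%. These shares rest on few bases, since Foxa2-202 and Foxa2-201 have 52 and 73 exon bases that no other Foxa2 transcript shares. The windows at the 2 coding starts are shown because the isoform shares turn on them. They come from RefSeq on GRCm38.p6, on the minus strand, 250 bases before to 50 bases after the start.
Foxa2-202 start, chr2:148045899-148046198: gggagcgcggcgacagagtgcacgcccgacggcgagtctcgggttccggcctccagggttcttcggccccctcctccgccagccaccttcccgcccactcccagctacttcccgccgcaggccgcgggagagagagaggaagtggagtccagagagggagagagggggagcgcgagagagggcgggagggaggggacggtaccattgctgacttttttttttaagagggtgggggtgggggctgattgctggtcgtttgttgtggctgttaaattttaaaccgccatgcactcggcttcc
Foxa2-201 start, chr2:148046920-148047219: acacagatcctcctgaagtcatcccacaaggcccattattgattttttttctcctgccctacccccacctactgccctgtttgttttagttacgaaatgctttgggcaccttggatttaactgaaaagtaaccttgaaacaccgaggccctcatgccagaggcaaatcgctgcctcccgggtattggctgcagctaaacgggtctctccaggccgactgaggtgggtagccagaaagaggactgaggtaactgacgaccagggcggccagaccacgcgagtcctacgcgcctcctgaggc
The first window was 64% G and C, and the second 54.3%. Neither held the motifs searched, which are listed with the synthesis genes.

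The LIM homeodomain pair stood in nearly the same proportion in both pools. Lmx1a (ENSMUSG00000026686, chromosome 1, 167689237 to 167848741, plus strand) was at 16.1 TPM in replicate 2 against 12.6 TPM in replicate 1, from 1172 and 720 counts. Its ratio of 1.26-fold, with an interval of 1.15 to 1.38, lay under the 1.5-fold threshold (exact binomial test, adjusted p = 1.41e-05). Lmx1b (ENSMUSG00000038765, chromosome 2, 33560965 to 33640511, minus strand) had a ratio of 1.30-fold, with an interval of 1.05 to 1.61 (exact binomial test, adjusted p = 0.0533). The level of Lmx1a was 6.91 times that of Lmx1b in replicate 2 and 6.94 times in replicate 1. Lmx1a-201 held 100% of Lmx1a in replicate 2 and 90.9% in replicate 1. The rest of replicate 1, 9.11%, went to Lmx1a-202, which starts 320 bases upstream, has the same 1146 coding bases and shares all but 49 of its exon bases with Lmx1a-201. Its intervals overlap between the libraries, up to 1.93 TPM in replicate 2 and from 0.0719 to 2.98 TPM in replicate 1. Lmx1b-201 held 100% and 95.7% of Lmx1b.

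Corin showed the largest ratio of the 10 genes. It was at 7.66 TPM in replicate 2 against 2.54 TPM in replicate 1 (ENSMUSG00000005220, chromosome 5, 72300025 to 72504473, minus strand), from 789 and 207 counts. The ratio was 2.95-fold, with an interval of 2.53 to 3.46 (exact binomial test, adjusted p = 2.11e-49), and 46 of 15199 tested genes had a ratio at least as high. Corin-202 held 75.0% in replicate 2 and 70.7% in replicate 1, and its TPM intervals lay apart, at 4.20 to 6.47 and 0.838 to 2.20 TPM. It has 35 exon bases that no other Corin transcript shares, and its posterior shares were 68.0% and 52.0%. Corin-201, whose start lies 265 bases further downstream and whose coding sequence has 3339 bases against 3141, held 25.0% and 29.3%, with intervals that overlap. The other 5 annotated Corin transcripts were listed at 0 in both libraries. An antisense gene, Gm20647, shares 147 exon bases with Corin and was itself listed at 0 in both libraries. Whether counting used strand is not given in the sources used here.

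The neuronal factors Nr4a2 and Pitx3 had ratios near 1 and were not called. Nr4a2 (ENSMUSG00000026826, chromosome 2, 57106830 to 57124003, minus strand) had 1999 counts in replicate 2 and 1340 in replicate 1, and its ratio of 1.15-fold had an interval of 1.08 to 1.24 (exact binomial test, adjusted p = 4.69e-04). Pitx3 (ENSMUSG00000025229, chromosome 19, 46135685 to 46148326, minus strand) was at 3.27 TPM in replicate 2 against 3.31 TPM in replicate 1, from 87 and 69 counts. Its ratio of 0.975 had an interval of 0.703 to 1.36, and a difference within these bounds was not detectable at this depth (exact binomial test, adjusted p = 0.99). The level of Nr4a2 was 8.88 times that of Pitx3 in replicate 2 and 7.63 times in replicate 1.

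Nr4a2 had the most mixed isoforms of the neuronal factors. Nr4a2-201, which starts inside the annotated gene at 57115038, held 69.5% in replicate 2 and 61.8% in replicate 1. Nr4a2-203 and Nr4a2-206 start 8965 bases upstream and together held 12.1% in replicate 2 and 13.5% in replicate 1. This upstream pair has 175 exon bases found in no transcript of another start. Taken singly, Nr4a2-201, Nr4a2-202, Nr4a2-203 and Nr4a2-206 have no exon bases of their own, so the division among them is uncertain. The interval of Nr4a2-203 reached from 0.00668 to 3.47 TPM in replicate 2 and from 0.000809 to 4.29 TPM in replicate 1. Nr4a2-203 encodes the same 1794 coding bases as Nr4a2-201, and Nr4a2-206 is annotated as a target of nonsense-mediated decay. Nr4a2-202, with a shorter coding sequence of 1605 bases, held 8.37% and 15.2%, with overlapping intervals of 0.752 to 4.04 and 1.87 to 5.60 TPM. Transcripts annotated as decay targets or without coding sequence held 15.9% in replicate 2 and 15.3% in replicate 1, of which Nr4a2-205 and Nr4a2-206 held the most. For Pitx3, the coding transcript Pitx3-201 held 90.2% and 89.0%, and Pitx3-203, a retained-intron transcript, held 9.82% and 10.99% from 2.30 and 2.06 estimated counts.

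**Figure D3:**
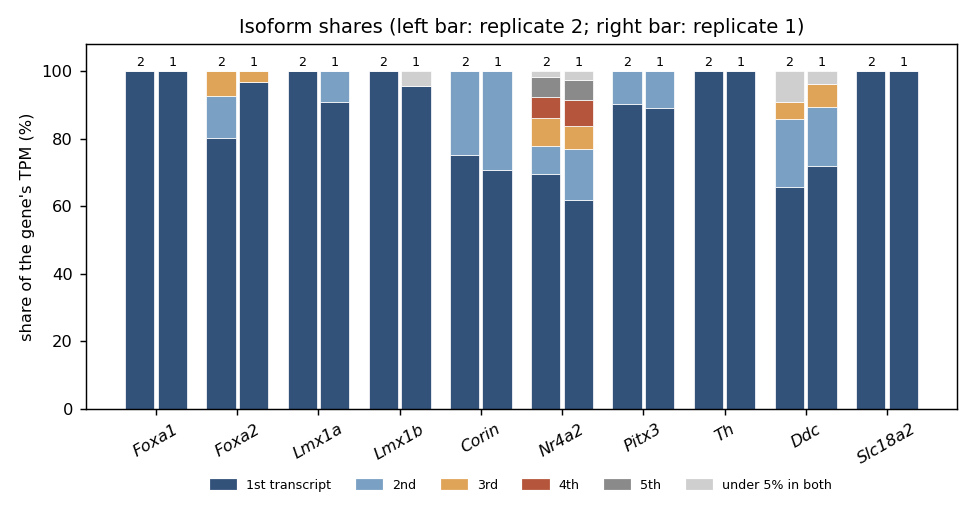
Share of each gene's TPM held by its transcripts, in percent, with replicate 2 on the left and replicate 1 on the right of each pair. Colours rank the transcripts of a gene by mean share, and light grey gathers those under 5% in both libraries. The leading transcript is the same in both libraries for all 10 genes, and its share is lowest for Nr4a2, Ddc and Corin.

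Across the 10 genes 43 transcripts were annotated in the files, and 16 of them were listed at 0 in both libraries. The leading transcript was the same in both pools for every gene, under deposited shares, posterior shares and shares of counts alike. Foxa1 and Slc18a2 had 1 annotated transcript each. Transcript TPM intervals lay apart between the libraries for 7 transcripts, each the leading one of its gene, and those genes were Foxa2, Lmx1a, Lmx1b, Corin, Nr4a2, Th and Slc18a2. These are intervals of TPM and not of isoform share, so they do not show a change of isoform use. The matching share over all transcripts was not computed.

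Of the genes that make and store dopamine, Th was called higher in replicate 2 and Ddc and Slc18a2 were not called. Th (ENSMUSG00000000214, chromosome 7, 142892752 to 142931128, minus strand), the rate-limiting enzyme, was at 23.5 TPM in replicate 2 against 13.1 TPM in replicate 1, from 911 and 401 counts. Its ratio was 1.76-fold, with an interval of 1.56 to 1.98 (exact binomial test, adjusted p = 3.03e-20), and 229 of 15199 tested genes had a ratio at least as high. With a 2-fold threshold Th was not called, while Foxa2 and Corin were. Ddc (ENSMUSG00000020182, chromosome 11, 11814101 to 11898144, minus strand), which turns L-DOPA into dopamine, was at 21.7 TPM in replicate 2 against 15.1 TPM in replicate 1, a ratio of 1.33-fold with an interval of 1.18 to 1.5 (exact binomial test, adjusted p = 3.71e-05). Slc18a2 (ENSMUSG00000025094, chromosome 19, 59260896 to 59296012, plus strand), which loads dopamine into vesicles, was at 15.2 TPM in replicate 2 against 11.5 TPM in replicate 1, a ratio of 1.29-fold with an interval of 1.18 to 1.42 (exact binomial test, adjusted p = 4.14e-07). The Th level was 1.08 times that of Ddc in replicate 2 and 0.865 times in replicate 1, and Slc18a2 was 0.701 and 0.759 times the level of Ddc.

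Th abundance came from 1 transcript. Th-201, with 13 exons, held 100% in both libraries, and the other 5 annotated transcripts were listed at 0. Among these, Th-202 and Th-206 start 31114 and 31106 bases upstream. The posterior share of Th-201 was 93.8% in replicate 2 and 83.9% in replicate 1. An antisense gene at the Slc18a2 start, Gm29261, shares 111 exon bases with Slc18a2 and was listed at 0 in both libraries.

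The windows of Th and Slc18a2 are shown because both hold a complete cyclic AMP response element, which the capitals mark. They come from RefSeq on GRCm38.p6, Th on the minus strand and Slc18a2 on the plus strand.
Th, chr7:142899946-142900245: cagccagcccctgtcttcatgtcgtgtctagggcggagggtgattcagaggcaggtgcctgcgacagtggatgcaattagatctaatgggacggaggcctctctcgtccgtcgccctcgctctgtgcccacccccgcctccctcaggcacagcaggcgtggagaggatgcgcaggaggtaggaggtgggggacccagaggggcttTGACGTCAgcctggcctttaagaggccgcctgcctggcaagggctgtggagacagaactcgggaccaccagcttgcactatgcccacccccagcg
Slc18a2, chr19:59260628-59260927: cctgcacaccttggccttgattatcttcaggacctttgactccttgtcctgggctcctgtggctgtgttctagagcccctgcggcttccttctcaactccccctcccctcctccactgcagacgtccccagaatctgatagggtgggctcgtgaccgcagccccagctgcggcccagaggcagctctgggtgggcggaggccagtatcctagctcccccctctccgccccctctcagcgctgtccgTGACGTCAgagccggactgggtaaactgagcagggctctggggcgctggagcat
The element begins 45 bases before the RefSeq start in Th and 4 bases before it in Slc18a2. Of 32851 windows of the same length, 588 hold it, or 1.79%. The motifs searched, on both strands, were AAAGGTCA (the NBRE bound by Nr4a2), TGTTTAC (forkhead), TAATTA (homeodomain), TAATCC (bicoid-type homeodomain), TGACGTCA (the cyclic AMP response element) and TATAAA (a core promoter motif, the TATA box). All 10 genes matched, with 13 windows in all. The only Nr4a2 window lies at its upstream start, which held 12.1% in replicate 2 and 13.5% in replicate 1, and not at the leading start. Those of Corin and Lmx1b hold no start of the transcripts measured here. The 13 windows therefore do not all lie at starts that held most of a gene's abundance. The NBRE was found in 1 of the 13 windows, against 1.51% of all windows, the forkhead motif in 1 (in Foxa1) against 3.65%, and the TATA box in 3 against 13.6%. All 3 matches to the TATA box letters lay on the strand opposite to the gene. The homeodomain motif and its bicoid type were found in none of the 13, against 5.29% and 7.06% of all windows. These matches describe letters only and were not tested as binding sites.

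Most Ddc abundance was given to transcripts of the downstream start, and the rest to transcripts that start still further downstream. In rat and human the gene is known to have separate neuronal and non-neuronal first exons. Here Ddc-202, a full coding transcript with 15 exons from the downstream start, was at 14.3 TPM in replicate 2 against 10.9 TPM in replicate 1, or 65.8% and 72.0% of Ddc. With the other transcripts of that start the shares were 71.9% in replicate 2 and 78.7% in replicate 1. Ddc-201 and Ddc-210 start 7636 and 7736 bases upstream, carry the same 1440 coding bases, and were listed at 0 in both libraries. The authors' posterior shares in replicate 2 and replicate 1 were 8.26% and 5.15% for Ddc-201 and 1.88% and 2% for Ddc-210. For Ddc-202 they were 51.4% and 57.7%. The upstream pair has 139 exon bases that no other Ddc transcript shares. The deposited interval of Ddc-201 reached 5.01 TPM in replicate 2 against 2.16 TPM in replicate 1, below the lower bounds of 7.98 and 7.15 TPM for Ddc-202. Transcripts without coding sequence held 34.2% in replicate 2 and 28.0% in replicate 1. Most of that was Ddc-206, which covers the 3′ part of the gene with 5 exons, at 4.35 and 2.62 TPM, and Ddc-208 held 4.86% and 6.71%.

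**Figure D4:**
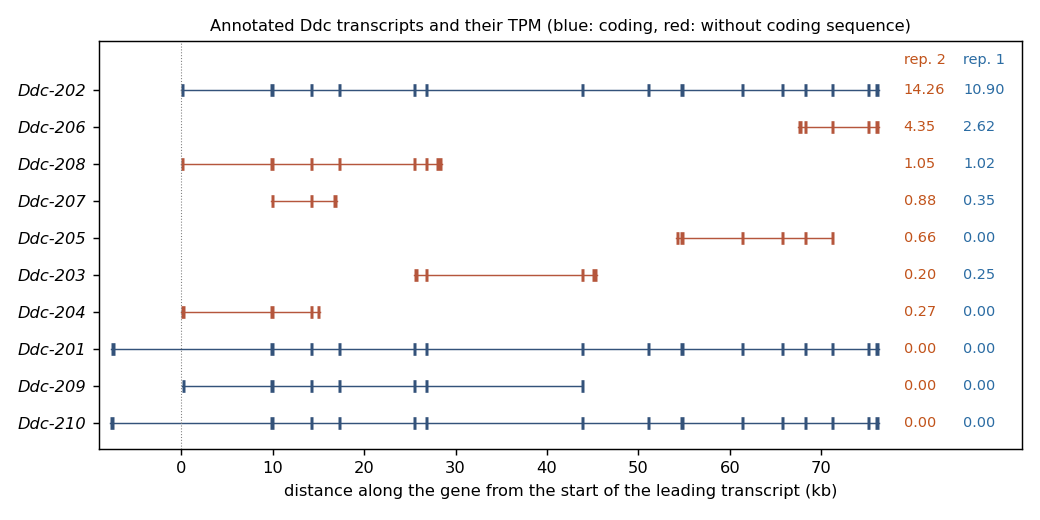
Annotated Ddc transcripts by distance in kb from the start of Ddc-202, ordered by mean share. Boxes are exons, drawn wider than to scale so that they can be seen. Coding transcripts are blue and transcripts without coding sequence red, and the numbers are TPM in replicate 2 and replicate 1. Ddc-202 leads with 14.26 and 10.90 TPM, and the 2 transcripts that start upstream are listed at 0.

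The windows at the downstream start of Ddc-202 and at the upstream start are shown because the shares separate them. They come from RefSeq on GRCm38.p6, on the minus strand, and capitals mark motif matches.
Ddc downstream start, chr11:11890359-11890658: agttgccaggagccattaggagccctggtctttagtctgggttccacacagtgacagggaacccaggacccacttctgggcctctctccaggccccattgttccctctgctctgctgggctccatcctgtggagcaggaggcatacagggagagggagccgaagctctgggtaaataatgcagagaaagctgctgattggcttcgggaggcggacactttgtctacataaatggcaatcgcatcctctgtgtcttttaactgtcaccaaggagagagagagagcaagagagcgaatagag
Ddc upstream start, chr11:11898095-11898394: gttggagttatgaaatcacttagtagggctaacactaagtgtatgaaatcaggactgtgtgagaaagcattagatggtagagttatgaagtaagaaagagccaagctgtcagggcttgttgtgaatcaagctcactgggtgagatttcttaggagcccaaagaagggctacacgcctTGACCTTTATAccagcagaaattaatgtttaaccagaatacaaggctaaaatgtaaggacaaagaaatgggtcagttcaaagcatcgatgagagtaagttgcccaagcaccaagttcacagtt
The upstream window holds the letters of an NBRE 73 bases and of a TATA box 68 bases before its start, both as the reverse complement. The 2 matches overlap, so they form 1 run of capitals. The downstream window holds none of the motifs searched. Its G and C content was 54.3%, against 41.3% in the upstream window.

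Other genes of the floor plate and ventral progenitors moved in both directions between the pools. Of 18 listed genes, all at a mean of 1 TPM or more, 4 were called higher in replicate 2 and 3 lower, against 2.14% and 1.41% of all tested genes. Higher were Ferd3l, Nkx6-1, Spon1 and Sulf1. The edgeR exact negative binomial test did not call Nkx6-1 (adjusted p = 0.266), nor Wnt1 among the lower genes (adjusted p = 0.246). Spon1, a matrix protein of the floor plate, was at 48.2 TPM in replicate 2 against 25.9 TPM in replicate 1, and Ferd3l, a bHLH factor, at 3.57 and 1.15 TPM. Lower genes included the proneural factor Neurog2, at 68.5 TPM in replicate 2 against 125.2 TPM in replicate 1, and the signal Wnt1, at 7.17 and 10.6 TPM. The median log2 ratio of the 18 genes was 0.21. Of 24 further genes of dopaminergic neurons, 19 were at a mean of 1 TPM or more, of which 1 was called higher and none lower (14 of 19 higher by sign, median log2 ratio 0.14). The called gene was Gch1, which makes the cofactor of tyrosine hydroxylase, at 4.12 TPM in replicate 2 against 2.49 TPM in replicate 1. It was not called in the edgeR exact negative binomial test (adjusted p = 0.217), which left none of the 19 called. Slc6a3, Aldh1a1, Kcnj6, Chrna6 and Chrnb3 were under 1 TPM in both libraries, the dopamine transporter gene Slc6a3 at 0.59 TPM in replicate 2 against 0.15 TPM in replicate 1.

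**Figure D5:**
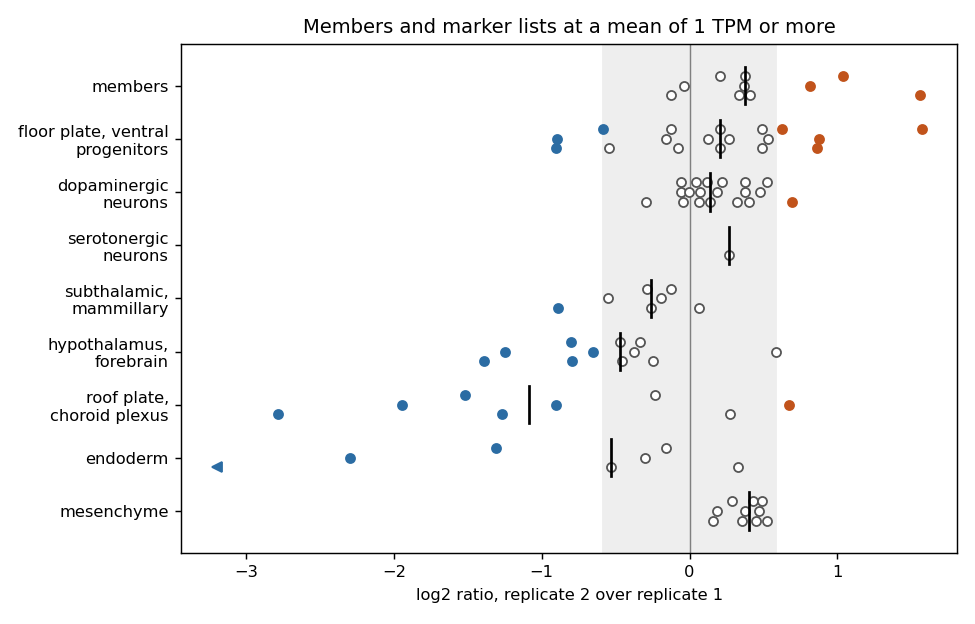
Log2 ratio of replicate 2 over replicate 1 for the 10 genes and for each marker list, for genes at a mean of 1 TPM or more. Filled points are called genes, the black line is the median of a list, the grey band marks ratios under 1.5-fold, and the arrowhead is Afp, which lies at -6.91. The 10 genes have a median of 0.37, and the subthalamic, forebrain, roof plate and endoderm lists have medians below 0.

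Several of the 10 genes are used by other cell types, whose markers were read in the same libraries. The counts of calls and signs stand against 2.14% of all tested genes called higher, 1.41% called lower and 49.7% higher by sign. All 6 noradrenergic genes were under 1 TPM in both libraries, with a summed level of 1.63 TPM in replicate 2 against 0.850 TPM in replicate 1, and Dbh, which defines these neurons, was at 0.13 and 0.07 TPM. Of 6 serotonergic genes, 5 were under 1 TPM in both libraries, Tph2, Fev and Slc6a4 among them. The 10 endoderm genes summed to 34.1 TPM in replicate 2 against 56.2 TPM in replicate 1, with 3 called lower and none higher and albumin listed at 0 in both. The most abundant, Trf and Sox17, were not called, at 14.51 and 8.09 TPM in replicate 2 against 17.06 and 8.13 TPM in replicate 1. Foxa2 was higher in replicate 2. The 10 roof plate and choroid plexus genes summed to 48.6 and 98.8 TPM, with 5 called lower and 1 higher. Lmx1a and Lmx1b had ratios of 1.26 and 1.30. The 12 genes of hypothalamus and other forebrain, regions that also hold Th neurons, summed to 206.7 and 279.5 TPM, with 5 called lower and 10 of 11 tested lower by sign. The 7 subthalamic and mammillary genes summed to 286.2 and 307.7 TPM, with 1 called lower and 6 of 7 lower by sign. The gene higher by sign, Dbx1, was the most abundant of them at 151.64 and 142.05 TPM, so these sums rest largely on it. The 10 mesenchyme genes were all higher in replicate 2 and none was called, with sums of 1584 and 1121 TPM and a median log2 ratio of 0.40, close to that of the 10 genes described here. The edgeR exact negative binomial test did not call Dlx1 of the forebrain list, Wnt3a and Aqp1 of the roof plate list and Apoa2 of the endoderm list, with adjusted p between 0.0601 and 0.171. All these directions are relative to the median of all tested genes. The part of these lists in the differences of Foxa2, Corin and Th was not tested.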

How the data were processed

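RNA of midbrain tissue was measured in 2 libraries. The linked manual, per the labels' protocols, is of a SMARTer Ultra Low RNA kit, which primes from poly(A) tails, and extraction used mirVana. The deposited expected counts are, per the file headers, estimated reads per gene or transcript, not always whole. The deposited TPM values were normalised by the authors to effective length and library. The bounds of the posterior TPM intervals are a deposited signal that is never negative, per the file headers, and a deposited TPM need not lie at their centre. The deposited isoform percent is a transcript's share of its gene's TPM. The assembly was mm10 with GENCODE M4, per the deposited file list, and the aligner is not given in the sources used here.

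Symbols and positions were looked up in GENCODE M21 (mm10), where 42462 of 43346 identifiers were found. Of the 43 transcripts, 40 had the same length in both releases. Expected counts were rounded. TMM factors (edgeR 4.0.16, R 4.3.3) were 1.005 for replicate 2 and 0.995 for replicate 1, and 26248 short numbered features and spike-ins (3.48% and 4.14% of counts) were left out. The exact binomial test ran on 18939 genes with at least 10 counts summed, with Benjamini-Hochberg adjustment, in scipy 1.17.1 with pandas 2.3.3. Log2 ratios had 0.5 counts added. Starts within 200 bases were grouped. Binomial intervals are 95% exact intervals that cover counting error only. The labels name separate pools of embryos. The steps were tested on simulated counts that held counting error only, so that test does not cover variation between pools. Alternatives included DESeq2 1.42.0 size factors and edgeR's exact negative binomial test, whose common dispersion came from the same libraries.

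Every member was named, with its transcripts at 5% or more in either library. In each list the rule named the 4 most abundant genes, the called genes and those under 1 TPM. Most of these are given here as counts, medians and sums, and a few are not reported here by name. The members and lists were chosen with earlier results of these data known. With 2 libraries no gene could be matched to a member by pattern.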

Additional observations from a re-analysis of the deposited data

How the results depend on the processing

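Calls of Foxa2 and Corin held under every alternative run for calls, and that of Th under all but the 2-fold threshold, where 2 members were called. The other size factors from gene counts, count minimums, posterior mean counts, the negative binomial test and the condition on TPM intervals kept the count of called members at 3. Of these, the count minimums left out no member, and posterior mean counts gave each member the same log2 ratio. Those settings could therefore hardly change the calls. Scaling to spike-in counts gave 7 called members and moved the median of all tested genes by 0.27 on the log2 scale. It added Lmx1a, Lmx1b, Ddc and Slc18a2, set the members' median log2 ratio at 0.65, and turned the sign of Foxa1, to 0.15, and of Pitx3, to 0.24, both below the shift of all genes. Calls by adjusted p alone came to 7 members. Among listed genes, 23 were called, against 37 with spike-in scaling, 58 without a fold threshold, 10 at 2-fold and 16 (3 of them higher) with the negative binomial test, and over all tested genes 539 against 1328, 4009 and 213, and 201 with the negative binomial test. The median level of the 10 genes was 10.9 TPM and 15.9 CPM without length, and it was 13.4 and 8.43 TPM with replicate 1 or replicate 2 left out. The median share of the leading transcript, over genes with several, was 89.0%, against 71.6% from posterior means and 93.6% from counts without length, and 85.2% and 89.95% with replicate 1 or replicate 2 left out. The posterior shares spread abundance over transcripts listed at 0, and the cause was not tested. Pitx3 and Lmx1b, with the fewest counts, have the widest ratio intervals on a log scale. No paired analysis was possible because there is 1 group.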

Other observations

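Some close relatives of the 10 genes were read too, chosen after the values were seen, and none of those given here was called. Of these, only Pitx1 and Nr4a1 had the mean of at least 1 TPM that a call needs, so the others could not be called at any ratio. Pitx1 was at 2.22 TPM in replicate 2 against 3.29 TPM in replicate 1. Nr4a1 was at 2.52 and 3.11 TPM and Nr4a3 under 1 TPM in both libraries, so Nr4a2 was the most abundant of its family. Foxa3 was at 0.07 and 0.09 TPM. The vesicular acetylcholine transporter Slc18a3 was at 1.22 and 0.59 TPM. Its ratio was 2.01-fold, with a 95% interval of 1.25 to 3.40 (exact binomial test, adjusted p = 0.0141). By the edgeR exact negative binomial test its adjusted p was 0.317. The other monoamine transporter Slc18a1 was at 1.38 and 0.52 TPM, though the scaled ratio of its 19 and 15 counts was 0.974, with a 95% interval of 0.472 to 2.07. Tph1 and Hdc, enzymes related to Th and Ddc, were under 1 TPM in both libraries.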
